A study of Saccharomyces cerevisiae with 24 samples.

Results

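The genes described are 10 glycolysis genes of Saccharomyces cerevisiae, most of which form paralog pairs: HXK1, HXK2, GLK1, PFK1, PFK2, TDH1, TDH3, ENO1, CDC19 and PYK2. They were chosen by gene symbol in the annotation of the array and make up 10 of the 5449 genes with a named probe set. All 10 passed the filter on dim probe sets, and all 10 lay above background on every one of the 24 arrays. The study asked how gene expression changes on a shift of growing yeast to heat, and whether the change depends on the genes PBF1 and PBF2. These are the transcriptional repressors TOD6 (PBF1) and DOT6 (PBF2), which bind a motif found upstream of ribosome biogenesis genes. Messenger RNA was measured on 1-colour Affymetrix Yeast Array 2.0 arrays.

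Of the 8 groups, 4 were collected 20 min after a shift to 37 °C: the double deletion delta-pbf1 delta-pbf2, the single deletions delta-pbf2 and delta-pbf1, and the wild type BY4741, a MATa laboratory strain. The other 4 groups were the same strains at 0 min, growing at 25 °C in the early phase of growth. Each group held 3 arrays from 3 cultures, and each culture gave 1 part to each time. The labels do not give the growth medium or the markers used to make the deletions, and nothing in them says whether more than 1 clone of a strain was used. The TOD6 probe set was above background on 0 arrays of the double deletion and of delta-pbf1, and the DOT6 probe set on 0 arrays of delta-pbf2. In the double deletion, DOT6 was above background on 1 array at 0 min, with a group mean signal of 8.85 there, against 855 in the wild type at 0 min. The marker gene URA3, which is deleted in BY4741, had a mean signal of 815 at 20 min and 1789 at 0 min in the double deletion and was above background on 0 arrays of the other strains. The double deletion thus differs from the other strains in URA3 as well, and the effects of URA3 and of the pair of deletions cannot be told apart. Markers of a MATa cell were above background on every array for 6 of 6 genes, with a summed signal of 2858 to 20414, and markers of a MATalpha cell for 2 of 4, with a summed signal of 172 to 372. The 6 MATa markers were called lower at 20 min in all 4 strains, and lower in the double deletion, set against the wild type, at 20 min. Their part in the results was not tested.

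Glycolysis turns glucose into pyruvate in the cytosol, and in yeast several of its steps are carried out by more than one enzyme. For a number of these steps one gene is expressed strongly while cells ferment glucose, and a relative of it is repressed by glucose and expressed on poor carbon sources or under stress. HXK2, CDC19 and TDH3 are the members known as the main enzymes of fermenting cells, and HXK1, GLK1, PYK2 and TDH1 as the members used more under stress or on poor carbon. PFK1 and PFK2 are the subunits of a single enzyme, so they form a pair without such a division.  Signals are MAS5 intensities in arbitrary units and are compared only within a probe set.

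**Figure D1:**
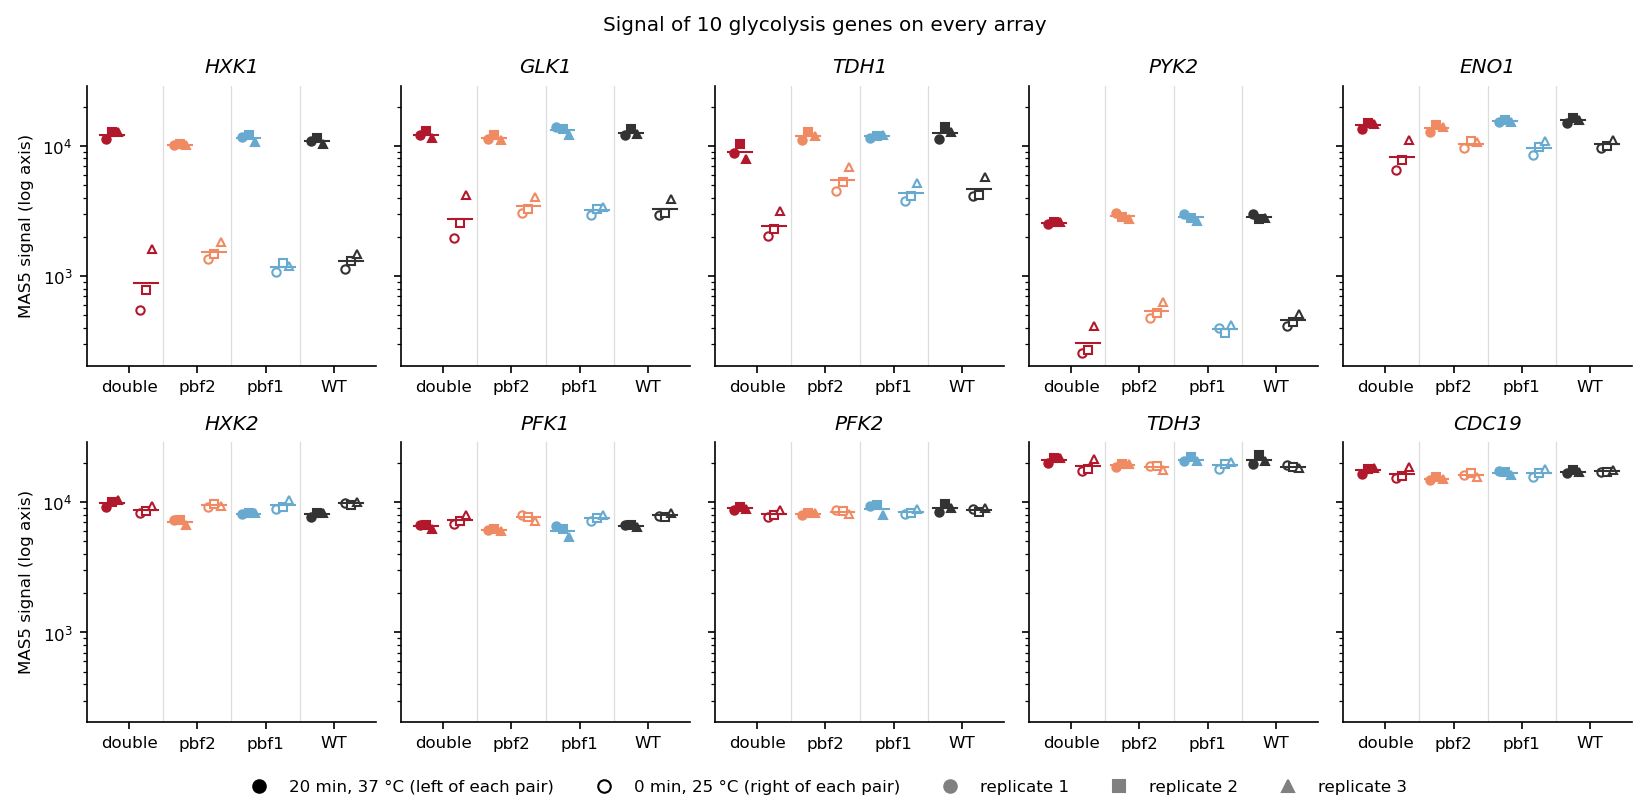
Signal of each of the 10 genes on each array (y axis, MAS5 signal, log scale), by strain, with 20 min and 0 min side by side. Each point is 1 array, with 3 arrays in each group. HXK1, GLK1, TDH1, ENO1 and PYK2 lie higher at 20 min than at 0 min in all 4 strains without overlap, while CDC19 overlaps between the times in every strain.

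The first step, phosphorylation of glucose, held the member with the steepest change. HXK1 encodes hexokinase 1, which phosphorylates glucose and fructose. Double deletion cells gave HXK1 signals of 11288, 12697 and 12641 at 20 min, against 552, 781 and 1628 at 0 min. The 20 min arrays lay close together there, and the 0 min arrays spread over a 2.95-fold range, with replicate 3 the highest. In the wild type the signals were 10916, 11435 and 10306 at 20 min, against 1128, 1318 and 1488 at 0 min. No 20 min array overlapped a 0 min array in any of the 4 strains. The change was 3.78 ± 0.23 on the log2 scale in the double deletion (limma, ± SE), 2.72 in delta-pbf2, 3.27 in delta-pbf1 and 3.06 ± 0.23 in the wild type (95% interval 2.59 to 3.53; adjusted p = 6.59e-11), where it is an 8.35-fold higher signal. Each array measured a whole culture, so fewer cells with the transcript and less of it per cell cannot be told apart. Ranked by change among 5395 tested genes, HXK1 stood at 60 from the top in the double deletion and at 113 in the wild type.

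GLK1 encodes glucokinase, which phosphorylates glucose but not fructose, and it rose with HXK1. The double deletion arrays gave 12041, 12945 and 11476 at 20 min, against 1967, 2557 and 4194 at 0 min. The wild type arrays gave 12195, 13360 and 12327 at 20 min, against 2926, 3027 and 3928 at 0 min. In both strains the times were far apart, and replicate 3 was the highest 0 min array. The changes were 2.14 in the double deletion, 1.75 in delta-pbf2, 2.04 in delta-pbf1 and 1.95 in the wild type (SE 0.17 each), with an adjusted p of 1.33e-09 in the wild type by limma.

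HXK2 encodes hexokinase 2, the main glucose-phosphorylating enzyme of fermenting cells, which also takes part in glucose repression. For HXK2 the double deletion read 9128, 10065 and 10343 at 20 min, against 8309, 8502 and 9399 at 0 min. These groups overlapped by 1 array, and the change was 0.17 ± 0.06 (adjusted p = 0.0166). Delta-pbf2 read 7224, 7333 and 6683 at 20 min, against 9206, 9727 and 9314 at 0 min, a change of -0.41. Delta-pbf1 read 8086, 8170 and 8169 at 20 min, against 8787, 9152 and 10347 at 0 min, a change of -0.21. The wild type read 7664, 8269 and 8236 at 20 min, against 9899, 9513 and 9987 at 0 min, a change of -0.28 ± 0.06 (adjusted p = 0.000334). In the single deletions and the wild type all 20 min arrays were below all 0 min arrays. On the deposited scaling HXK2 thus rose in the double deletion and fell in the single deletions and the wild type. The sign of these small changes depends on the scaling: under median centring the change was -0.10 in the double deletion, and under quantile normalization it was 0.13 in the wild type.

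The scaling bears on all small changes here. MAS5 sets the trimmed mean of each array to one value, and on this scale the median change of all tested genes was 0.27 in the wild type, against 0.04 after quantile normalization and -0.71 after centring on the poly(A) control transcripts. HXK1, GLK1 and PYK2 were called higher in all 4 strains under each of the 4 other scalings tried. TDH1 was called higher in 4 strains under 3 of these scalings and in 0 strains under poly(A) centring, where its change was 0.24 to 0.82 and still positive. ENO1 was called higher in 4 strains under quantile normalization, in 3 under median centring and under hybridization control centring, and in 0 under poly(A) centring, where its change was negative. For HXK2, PFK1, PFK2, TDH3 and CDC19, as for ENO1, the sign itself differed between scalings in at least 1 strain.

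**Figure D2:**
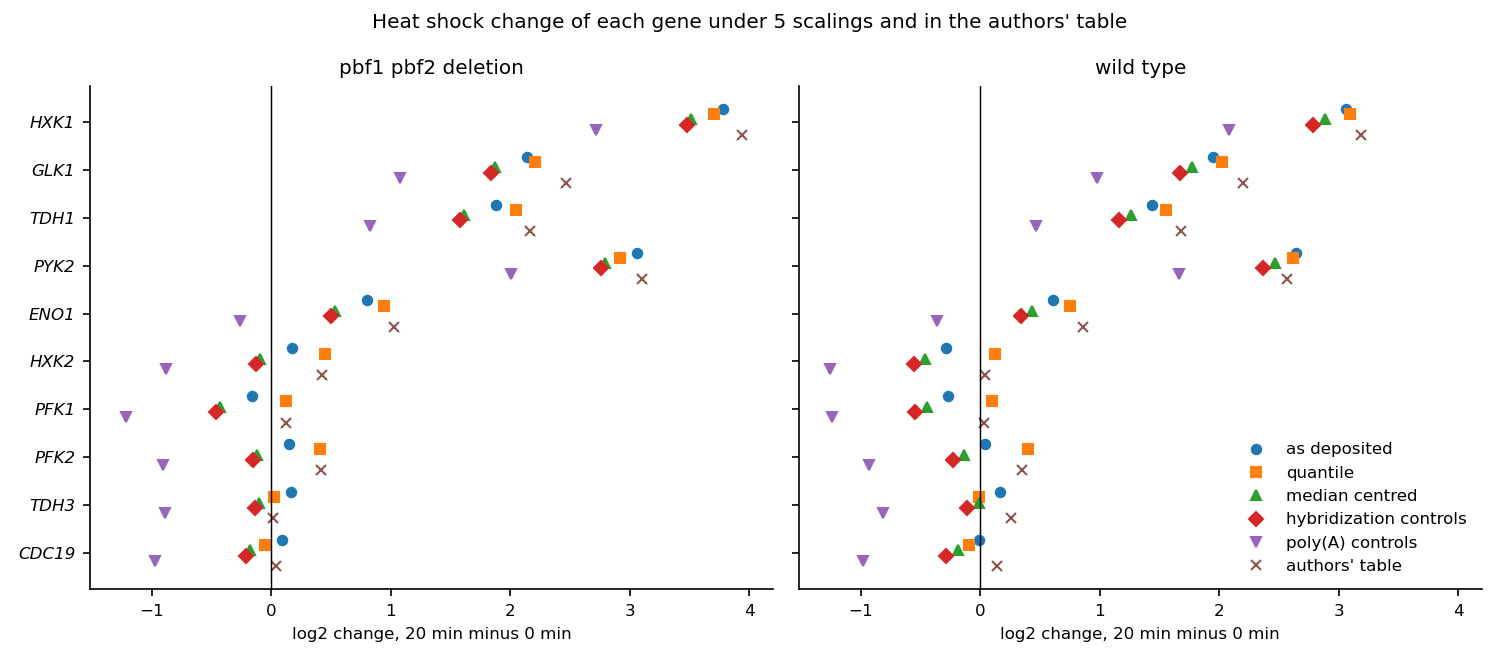
Heat shock change of each of the 10 genes in double deletion and wild type cells (log2, 20 min minus 0 min) under the deposited scaling and 4 other scalings, and in the authors' deposited table. HXK1, PYK2 and GLK1 stay clearly above 0 under every scaling, while HXK2, PFK1, PFK2, TDH3, ENO1 and CDC19 have values on both sides of 0 in at least 1 of these strains.

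At the next committed step, phosphofructokinase, the subunits had small changes on the deposited scaling. PFK1 encodes the alpha subunit. In the wild type it read 6613, 6645 and 6481 at 20 min, against 7836, 7650 and 8294 at 0 min, and all 20 min arrays were below all 0 min arrays in each of the 4 strains. Its change was -0.16 in the double deletion, -0.31 in delta-pbf2, -0.32 in delta-pbf1 and -0.27 in the wild type (SE 0.07 each), and after quantile normalization it was 0.10 in the wild type. PFK2 encodes the beta subunit, with 8313, 9647 and 9074 at 20 min, against 8799, 8450 and 8948 at 0 min in the wild type. Those groups overlapped, and its change of 0.04 (95% interval -0.10 to 0.18) did not pass the test. On the deposited scaling it passed in the double deletion, at 0.15 ± 0.07 (adjusted p = 0.0490), and not there without the filter on dim genes (adjusted p = 0.0502) or without the variance trend (adjusted p = 0.0633). After quantile normalization PFK2 passed as higher in the double deletion (0.41), delta-pbf2 (0.37), delta-pbf1 (0.43) and the wild type (0.40, adjusted p = 4.25e-08). After hybridization control centring it passed as lower in delta-pbf2 (-0.29) and in the wild type (-0.23). On the deposited scaling PFK2 also passed as higher in delta-pbf1 without the 20 min replicate 3 (0.17, adjusted p = 0.0225). That array was the lowest of its group (7883, against 9337 and 9458), so leaving it out could only raise the change.

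Glyceraldehyde-3-phosphate dehydrogenase is encoded by TDH1, TDH2 and TDH3, and no named probe set represents TDH2. TDH1 is the isoform associated with stress and stationary phase. For TDH1 the double deletion read 8837, 10377 and 7921 at 20 min, against 2018, 2282 and 3166 at 0 min, and the wild type read 11251, 13938 and 12847 at 20 min, against 4155, 4197 and 5788 at 0 min. The times did not overlap in either strain, and the double deletion lay below the wild type at both times. The change was 1.88 in the double deletion, 1.12 in delta-pbf2, 1.44 in delta-pbf1 and 1.44 ± 0.17 in the wild type (adjusted p = 8.56e-08), or 2.71-fold in the wild type. TDH3, the most abundant isoform, read 19401, 22948 and 20648 at 20 min, against 19169, 18520 and 18352 at 0 min in the wild type. Its change was 0.17 in the double deletion and 0.17 ± 0.07 in the wild type (adjusted p = 0.0393, and 0.0566 in a fit on the wild type's own arrays), with -0.0074 in the wild type after quantile normalization. It did not pass in delta-pbf2 (0.05) or in delta-pbf1 (0.13).

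The array carries further TDH1 probe sets as controls for RNA quality, and these give repeated measures of the TDH1 change. In the double deletion the change was 2.33 ± 0.58 for the 5′ probe set, 2.36 ± 0.61 for the middle one, 1.72 ± 0.47 for the 3′ one and 1.88 ± 0.48 for the probe set of the gene (SD, n = 3 cultures each). In the wild type it was 1.69 ± 0.28, 1.62 ± 0.36, 1.22 ± 0.22 and 1.44 ± 0.29 for the same probe sets. Another control probe set, of the kind whose probes are shared by similar transcripts, gave 0.11 ± 0.04 in the double deletion and 0.09 ± 0.20 in the wild type. The specific TDH1 probe sets thus all moved one way, and the shared one stayed near 0. The 3′ to 5′ signal ratio of TDH1 was 1.17 to 1.37 on the 20 min arrays and 1.44 to 2.15 on the 0 min arrays, without overlap. By strain it was 1.30 to 1.37 in the double deletion, against 1.19 to 1.26 in the wild type at 20 min, and 1.90 to 2.15 in the double deletion, against 1.59 to 1.77 in the wild type at 0 min, again without overlap. For the ACT1 control probe sets the ratio was 1.25 to 1.44 at 20 min and 1.37 to 1.49 at 0 min. The part of these ratios in the size of the TDH1 change and in the TDH1 differences between strains was not tested.

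**Figure D3:**
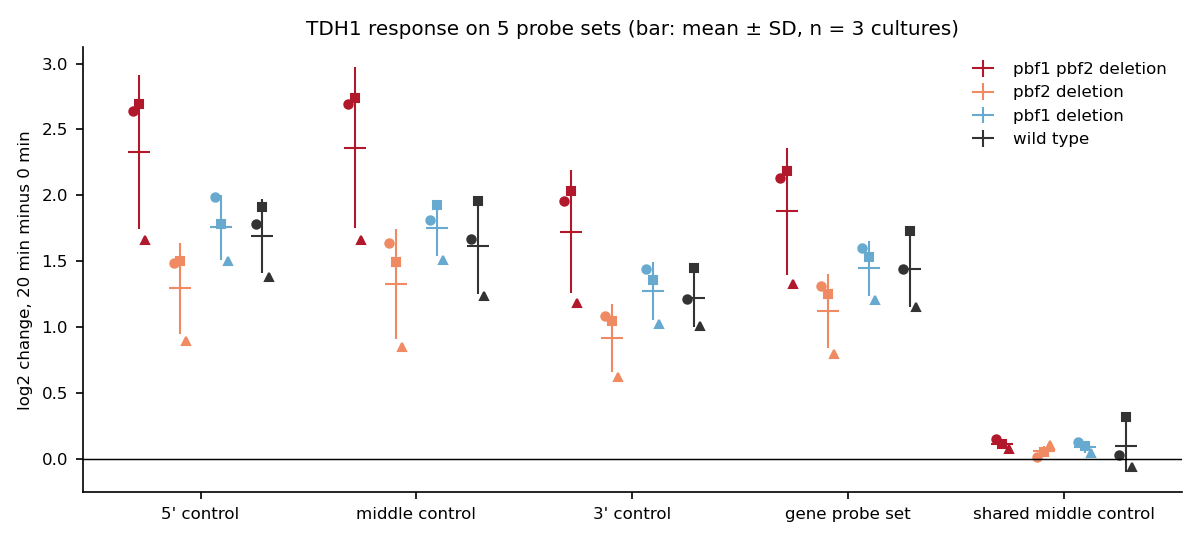
Heat shock change (log2, 20 min minus 0 min of the same culture) of 5 TDH1 probe sets by strain. Circles, squares and triangles are replicates 1, 2 and 3, and bars give the mean ± SD of 3 cultures. The 4 specific probe sets lie well above 0 in every strain, and the shared probe set lies near 0.

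ENO1 encodes an enolase, a form expressed at more even levels across carbon sources than its paralog ENO2. It read 14829, 16418 and 15845 at 20 min, against 9695, 10007 and 11110 at 0 min in the wild type. The groups were apart and the change was 0.61 ± 0.13 (adjusted p = 0.000136), or 1.53-fold on the deposited scaling, with a negative value of -0.36 under poly(A) centring. The changes in the double deletion, delta-pbf2 and delta-pbf1 were 0.80, 0.40 and 0.68.

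At the last step, pyruvate kinase, the minor and the main isoform differed widely. PYK2 encodes the minor isoform, known to be repressed by glucose. The double deletion read 2515, 2590 and 2622 at 20 min, against 258, 274 and 415 at 0 min, a change of 3.06, and again replicate 3 was the highest 0 min array. The change was 2.40 in delta-pbf2 and 2.84 in delta-pbf1. The wild type read 3018, 2768 and 2811 at 20 min, against 419, 445 and 517 at 0 min, a change of 2.64 ± 0.13 (adjusted p = 1.10e-13) or 6.25-fold. CDC19, the main isoform, read 16664, 17706 and 16979 at 20 min, against 17061, 16840 and 17722 at 0 min in the wild type. Those groups overlapped fully, and the change of -0.01 (95% interval -0.14 to 0.12) did not pass. It passed in no strain on the deposited scaling, with changes of 0.09 in the double deletion, -0.09 in delta-pbf2 and 0.00 in delta-pbf1. Without the 0 min replicate 3 of the double deletion it passed there as higher (0.17, adjusted p = 0.0116). That array had the highest CDC19 signal of its group, so leaving it out could only raise the change. In the wild type CDC19 passed as lower under each of the 4 other scalings.

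Counted over the set, 9 of 10 members passed in the heat shock of the double deletion (8 higher, 1 lower), where 79.4% of all tested genes were called. In delta-pbf2 7 passed (5 higher, 2 lower), against 78.5% of all genes, and in delta-pbf1 7 passed (5 higher, 2 lower), against 81.6%. In the wild type 8 passed (6 higher, 2 lower), against 80.7%. The share of members called is close to the background in each strain. By direction, 48.5% of all genes were called higher and 30.9% lower in the double deletion, 48.4% and 30.1% in delta-pbf2, 51.2% and 30.4% in delta-pbf1, and 51% and 29.7% in the wild type. The median change of the 10 members was 0.48 in the double deletion, 0.23 in delta-pbf2, 0.40 in delta-pbf1 and 0.39 in the wild type, beside 0.21, 0.21, 0.27 and 0.27 for all tested genes.

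With the culture as a block in the fit, PFK1 and PFK2 in the double deletion did not pass (adjusted p = 0.0791 and 0.0984), and the count of members called in that strain was 7 in place of 9. A fit on the double deletion's own 6 arrays gave 5, as did leaving out its 0 min replicate 2 or its 20 min replicate 3. HXK1, GLK1, TDH1, ENO1 and PYK2 were the 5 that passed in these 3 fits, and HXK2, PFK1, PFK2 and TDH3 did not. The share of all genes called with the culture block and in these 3 fits is not given here. Of the 6 arrays of the double deletion, leaving out 1 ended the call of HXK2 for 4 of them (adjusted p 0.0561 to 0.0819), of TDH3 for 4 (0.117 to 0.197), of PFK1 for 3 (0.0543 to 0.212) and of PFK2 for 5 (0.0576 to 0.171). The arrays were replicates 1 and 2 at 0 min and 2 and 3 at 20 min for HXK2 and TDH3, replicates 2 and 3 at 0 min and 3 at 20 min for PFK1, and all but 0 min replicate 3 for PFK2. The wild type call of TDH3 was lost without replicate 2 or 3 of either time (adjusted p 0.0563 to 0.230).

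The comparison of induced and growth isoforms was made within each culture, as the change of one gene minus the change of its paralog, a quantity that centring an array does not alter. HXK1 gained on HXK2 by 3.61 ± 0.72 in the double deletion, 3.14 ± 0.18 in delta-pbf2, 3.48 ± 0.06 in delta-pbf1 and 3.34 ± 0.29 in the wild type (log2, SD, n = 3 each). PYK2 gained on CDC19 by 2.98 in the double deletion, 2.50 in delta-pbf2, 2.83 in delta-pbf1 and 2.65 in the wild type. GLK1 gained on HXK2 by 1.96, 2.16, 2.25 and 2.23, and TDH1 on TDH3 by 1.71, 1.07, 1.31 and 1.27, in the same order of strains. In each of the 12 cultures the gap was positive for all 4 of these pairs, from 2.82 to 4.22 for HXK1 and HXK2, 2.16 to 3.18 for PYK2 and CDC19, 1.31 to 2.48 for GLK1 and HXK2, and 0.65 to 1.95 for TDH1 and TDH3. The subunit pair had a small gap of the other sign, PFK1 below PFK2 by -0.49 to -0.16 over the 12 cultures.

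The gaps of each deletion were set against those of the wild type. Of the 15 comparisons (5 pairs, 3 deletions), 0 reached the smallest p that 3 cultures against 3 allow, 0.1, by a two-sided exact permutation test, and the adjusted p was 0.818 to 1. This design cannot reach a p under 0.05, so it cannot show a difference or its absence. The widest spread was that of HXK1 and HXK2 in the double deletion, where replicate 3 had a gap of 2.82 and the other cultures 4.22 and 3.78, against at most 3.64 in the wild type. For TDH1 and TDH3 the double deletion cultures gave 1.95, 1.90 and, for replicate 3, 1.30, against at most 1.42 in the wild type. For PYK2 and CDC19 they gave 3.18, 3.07 and, for replicate 3, 2.68, against at most 2.88 in the wild type. In these 3 pairs replicates 1 and 2 of the double deletion lay above every wild type culture, and replicate 3 did not. GLK1 and HXK2 differed from this, with 2.48, 2.10 and, for replicate 3, 1.31 in the double deletion, against at most 2.43 in the wild type. There only replicate 1 lay above every wild type culture.

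**Figure D4:**
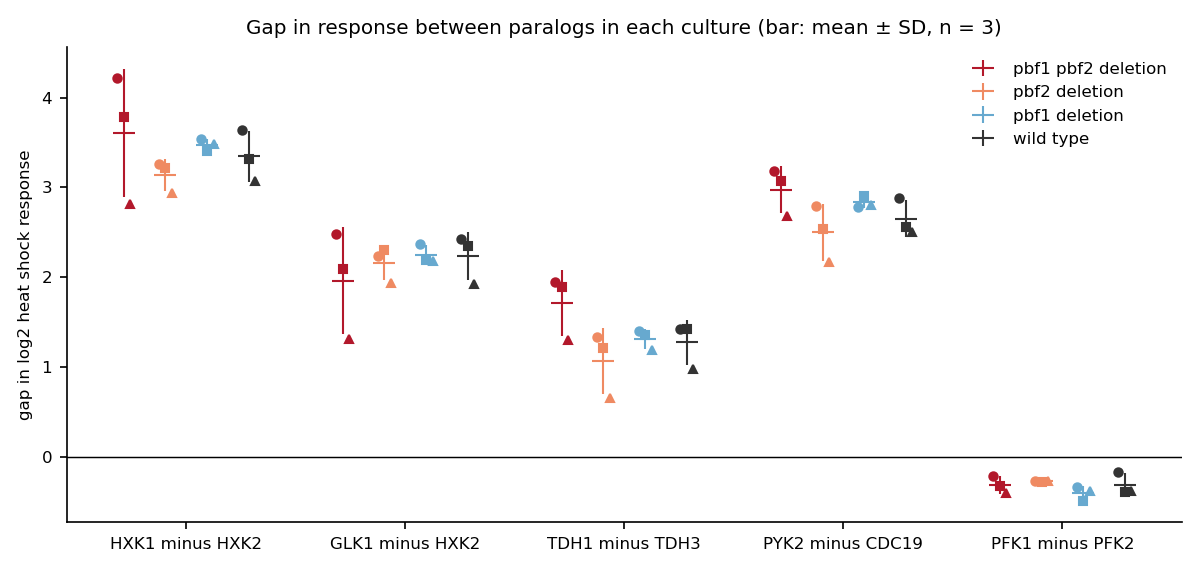
Difference between the heat shock changes of 2 paralogs (log2) in each of the 12 cultures, by pair and strain. Circles, squares and triangles are replicates 1, 2 and 3, and bars give the mean ± SD of 3 cultures. HXK1-HXK2, PYK2-CDC19, GLK1-HXK2 and TDH1-TDH3 are above 0 in every culture and PFK1-PFK2 is below 0 in every culture.

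The response of each deletion was tested as its heat shock change minus that of the wild type. For the double deletion this cannot tell the loss of the repressors from the difference in URA3. In the double deletion HXK2 was the member that passed, with a difference of 0.46 ± 0.09 (95% interval 0.27 to 0.64; adjusted p = 0.000619), where 27.8% of all genes were called, 15% as higher. The difference was positive under each of the 4 other scalings, at 0.32 to 0.43, and passed in all of them except poly(A) centring. HXK1 had a difference of 0.72 ± 0.32 (95% interval 0.05 to 1.38; adjusted p = 0.103), PYK2 of 0.42 ± 0.18 (adjusted p = 0.0996) and TDH1 of 0.44 ± 0.24 (adjusted p = 0.182), and none of these passed. The single deletions gave no such member: in delta-pbf2, limma called 0 of 10 members and 1.71% of all genes, and in delta-pbf1 0 of 10 members and 0% of all genes. Unadjusted p-values under 0.05 were found for 0 members in either strain, beside 813 genes (15.1%) in delta-pbf2 and 183 genes (3.39%) in delta-pbf1. The widest 95% intervals of the members in these comparisons ran from -1.0 to 0.33 in delta-pbf2 and from -0.46 to 0.87 in delta-pbf1, both for HXK1.

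The number of members called in the double deletion depended on 1 array. Its 0 min replicate 3 gave the highest of the 3 signals for all 10 members, where it did so for 32.1% of all tested genes. Without that array, 6 members passed as higher in the double deletion's response, where 14.6% of all genes did. These were HXK1 at 1.15 ± 0.18 (adjusted p = 8.75e-05), PYK2 at 0.63, TDH1 at 0.63, HXK2 at 0.51, GLK1 at 0.49 and ENO1 at 0.40. As the array left out was the highest of its group for each member, its removal could only raise these responses. The added calls are therefore no independent support for a difference. For GLK1, TDH1 and PYK2, replicate 3 was the highest 0 min array in all 4 strains, as it was for 4.91% of all genes, and at 20 min this held for 0 members. The nature of the difference of replicate 3 was not tested.

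Before heat shock, TDH1 and PYK2 stood lower in double deletion cells than in wild type cells. TDH1 had a difference of -0.93 ± 0.17 (adjusted p = 0.000449) and a mean signal of 2443 in the double deletion, against 4656 in the wild type, and its arrays did not overlap. The 3′ to 5′ ratio of TDH1 differed between these groups too, as given above with the control probe sets. PYK2 had a difference of -0.57 ± 0.13 (adjusted p = 0.00337), with 308 in the double deletion, against 458 in the wild type. Neither passed under poly(A) centring (TDH1 -0.61, PYK2 -0.25), and both passed under the other scalings. These were 2 of 10 members, where 24.4% of all genes were called, 16% as lower. HXK1 (-0.55, adjusted p = 0.0810), ENO1 (-0.31, adjusted p = 0.0752) and HXK2 (-0.17, adjusted p = 0.0571) did not pass in the main fit. With the replicate number as a block they passed as lower by limma (adjusted p = 0.0443, 0.0199 and 0.0365), where 1028 of 5395 genes did. Same-numbered arrays were not taken as paired at 0 min. After quantile normalization ENO1 and HXK2 passed as lower (adjusted p = 0.0292 and 0.0229), where 523 of 5395 genes did. Without the 0 min replicate 3 of the double deletion, 6 members passed as lower, where 14.8% of all genes did: TDH1 at -1.12, HXK1 at -0.99, PYK2 at -0.79, GLK1 at -0.54, ENO1 at -0.52 and HXK2 at -0.22. Leaving out the highest array of the group could only lower these values, so the added calls are no independent support. In the single deletions limma called 0 members at 0 min, and 0 had an unadjusted p under 0.05, where 0.241% of all genes passed in delta-pbf2 and 0.111% in delta-pbf1, and 5.78% and 7.67% had such an unadjusted p.

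After heat shock, double deletion cells had a higher HXK2 signal and a lower TDH1 signal than wild type cells. HXK2 averaged 9832 in the double deletion and 8051 in the wild type, a difference of 0.29 ± 0.06 (adjusted p = 0.000635), and every double deletion array exceeded every wild type array. TDH1 averaged 8989 in the double deletion and 12630 in the wild type, a difference of -0.49 ± 0.17 (adjusted p = 0.0178), again without overlap. These were 2 of 10 members, where 53.4% of all genes were called, 20.9% as higher and 32.4% as lower. TDH1 did not pass without replicate 3 of the double deletion (-0.40, adjusted p = 0.0824) or without replicate 2 of the wild type (-0.42, adjusted p = 0.0748). Under poly(A) centring neither gene passed (HXK2 0.53, TDH1 -0.25). HXK1, GLK1 and PYK2 differed by 0.16, -0.06 and -0.15 at 20 min and did not pass.

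In the single deletions 0 members passed at 20 min by limma without a block, where 13.3% of all genes passed in delta-pbf2 and 0.630% in delta-pbf1. At an unadjusted p under 0.05 there were 3 members in delta-pbf2 (HXK2, CDC19 and PFK2) and 0 in delta-pbf1, where 27.6% and 10.8% of all genes had one. Same-numbered replicates deviated together at 20 min in these strains, and with the replicate number as a block HXK2 (-0.19, adjusted p = 0.0324) and CDC19 (-0.18, adjusted p = 0.0431) passed as lower in delta-pbf2, where 6.62% of all genes did. Without replicate 1 of the wild type at 20 min, HXK2 (-0.22) and PFK2 (-0.20) passed as lower, where 7.41% of all genes did. That array had the lowest wild type signal at 20 min for both genes (7664 and 8313). Leaving it out could only lower these differences, so the added calls are no independent support.

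**Figure D5:**
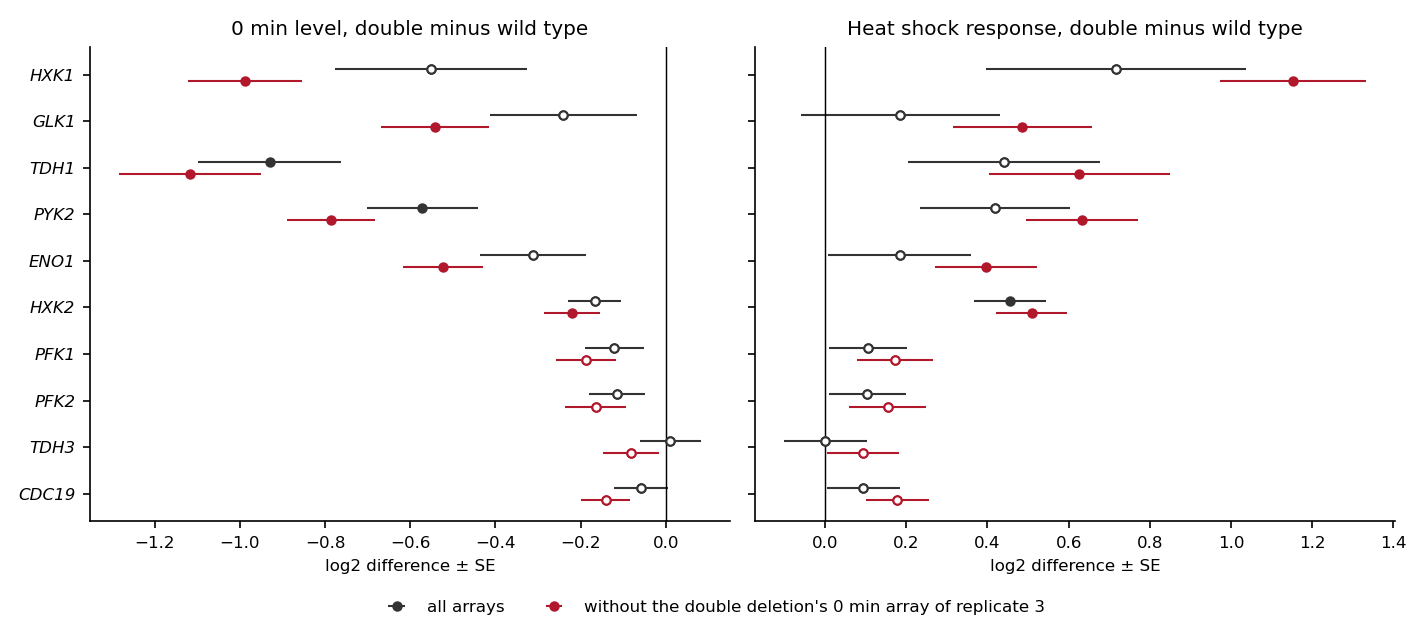
Differences of the 10 genes between the double deletion and the wild type (log2 ± SE, limma) at 0 min and in the heat shock response, with all arrays and without the double deletion's 0 min replicate 3. Filled symbols passed at an adjusted p under 0.05 and hollow symbols did not. With all arrays HXK2 alone passes in the response, and without that array 6 genes pass. That array had the highest signal of its group for all 10 genes, so leaving it out could only raise the response.

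Other enzymes of the pathway were compared from a list of 13, of which 10 had a probe set. Of these 10, 7 rose and 1 fell in the double deletion, where 48.5% of all genes were called higher and 30.9% lower. In the wild type 4 rose and 1 fell, where 51% and 29.7% of all genes did. The list had a median change of 0.16 in the double deletion and 0.10 in the wild type. All tested genes had medians of 0.21 and 0.27. GPM2, a minor homolog of phosphoglycerate mutase, rose by 3.84, ERR3, an enolase-related gene, by 2.20, and EMI2, a relative of glucokinase, by 2.08 in the wild type. PGK1, phosphoglycerate kinase, rose by 0.18 on the deposited scaling and was named after its value was seen. GPM3, another minor mutase homolog, fell by 0.61. EMI2 was the only gene of this list with a response that differed between the double deletion and the wild type, by 0.69 ± 0.24 (adjusted p = 0.0366).

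Enzymes of fermentation moved in both directions, with 3 of 8 higher and 2 lower in the wild type. Of all genes, 51% were called higher and 29.7% lower there. PDC6, a minor pyruvate decarboxylase, did not pass in the double deletion (-0.13) and rose by 2.14 in the wild type. ADH2, the alcohol dehydrogenase that oxidizes ethanol, rose by 1.47 and ADH3, the mitochondrial one, by 0.27, while ADH4 fell by 0.57 and PDC5 by 0.29. Of the 5 gluconeogenesis enzymes, PYC1 (2.17), PCK1 (1.76) and FBP1 (1.26) rose and MDH2 (-1.12) and PYC2 (-0.26) fell in the wild type. FBP1 was above background on 2 of 3 wild type arrays at 0 min, where its signal ran from 5.49 to 17.0, so the size of its rise is uncertain.

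Among 14 regulators of glycolysis 9 rose and 1 fell in the wild type, where 51% of all genes were called higher and 29.7% lower. FBP26 (1.77) and PFK26 (1.71), which break down and make fructose 2,6-bisphosphate, the activator of phosphofructokinase, both rose, as did UBC8 (1.68), which acts in the degradation of fructose-1,6-bisphosphatase, and STD1 (-0.30), a glucose-sensing regulator, fell. Of the 5 stress regulators, GIS1 (1.38), MSN4 (1.36), RIM15 (1.24) and HSF1 (0.80) rose, and MSN2 (0.13) did not pass.

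The genes with patterns most like each member over the 24 arrays are given by Pearson's r of log2 signal, as a description, since the arrays share strains, times and scaling. HXK1 was closest to TSL1, GLK1 and RTC3, with r of 0.996 for each. GLK1 was closest to HXK1, NTH1 and TSL1. TSL1 encodes a subunit of trehalose synthase and NTH1 a trehalase. PYK2 was closest to UGA1 (0.997), PGM2 (0.996) and RNY1 (0.996), of which PGM2 encodes phosphoglucomutase. TDH1 was closest to BDH2 (0.984), YPC1 (0.982) and YGP1 (0.977), and ENO1 to POR1 (0.961), COF1 (0.959) and SDS24 (0.954). The other members had other neighbours: HXK2 was closest to SPE3 (0.935), TMA19 (0.914) and GUS1 (0.902), and PFK1 to TKL1 (0.949), TRP5 (0.913) and RPL43A (0.908). TDH3 was closest to ENO2 (0.889), ACT1 (0.883) and GPM1 (0.882), CDC19 to PDC1 (0.918), EFB1 (0.918) and TEF2 (0.900), and PFK2 to FBA1 (0.845), ACT1 (0.841) and PDC1 (0.761).

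In the double deletion the authors' deposited table of expression ratios gave log2 ratios of 20 min over 0 min of 3.94 for HXK1 and 0.42 for HXK2. In the wild type the authors' deposited table gave 3.19 for HXK1, 2.57 for PYK2, 2.20 for GLK1, 1.68 for TDH1 and 0.86 for ENO1, the order found here as well. For the other members in the wild type the authors' deposited table gave 0.04 for HXK2, 0.03 for PFK1, 0.35 for PFK2, 0.26 for TDH3 and 0.14 for CDC19.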

How the data were processed

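Total RNA was labelled with biotin and hybridized to 24 arrays. The authors deposited linear intensity values for each probe set. The submitters' processing notes name MAS5, with a version not given in the sources used here. Over the 10928 probe sets, the mean after trimming 2% at either end was 500.3 to 500.4 on all arrays. A separate table that the authors deposited holds log2 ratios (20 min over 0 min) beside false discovery rates, adjusted p-values per the file headers, of which those of the wild type were read.

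A single gene name was found for 7244 probe sets, several for 1 and none for 3683. Those naming a gene of the S. cerevisiae reference table were used (5498, giving 5449 genes, with the brightest probe set for the 47 genes with several). The other 1746 named probe sets served as background. Genes with a mean log2 signal above 2.35, their 90th percentile, were tested (5395, with 54 left out). A signal above their 95th percentile on an array, 9.02 to 11.6, counted as above background. The number of arrays limits the precision. No sequence, coordinate or image file was used here.

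Log2 signals, with no pseudocount and no further scaling, were fitted as 8 group means by limma 3.58.1 (R 4.3.3), using eBayes with a variance trend and 16 residual degrees of freedom. Two-sided p-values were adjusted within each comparison (Benjamini-Hochberg, all tested genes) and called under 0.05. On simulated data for the wild type heat shock (5395 genes, of which 100 were changed by each amount), 69% of changes of 0.5 and 90% of changes of 1 on the log2 scale were recovered, with 6 false calls. In the real wild type heat shock 80.7% of genes were called, so these rates do not carry over to it. Paralog gaps used two-sided exact permutation tests. Tables and figures were made in Python 3.11.15 (pandas 2.3.3, matplotlib 3.10.9, scipy 1.17.1, numpy 2.4.6).

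Named were all members, and of each other list the 3 largest rises and 3 largest falls in heat-shocked wild type cells and the 2 largest differences of the double deletion's response in each direction among genes past the threshold, lists of 5 or fewer whole, and the 3 genes most like each member. The members and lists were chosen with earlier results of these data known.

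Per the labels, each culture was divided between the times, so the culture pairs the arrays of a strain. The deviations of paired arrays correlated at -0.04 to 0.19. Between strains, same-numbered arrays correlated at 0.27 to 0.65 (delta-pbf1) and 0.21 to 0.46 (delta-pbf2) at 20 min, and were taken as paired. At 0 min and for the double deletion not every pair was above 0.1, and they were not. The main fit used no block, so its counts leave out the pairing by culture and by replicate number. Fits with a block were run as alternatives and are given beside them. Alternatives were the scaling, a pseudocount of 16, the filter, the variance trend, the arrays in the fit, the mean of probe sets, the replicate block and leaving out each replicate.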

Additional observations from a re-analysis of the deposited data

Results flagged for a closer look

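These genes had a heat shock response in the double deletion that differed from the wild type's by the test of the difference itself (limma, log2, double deletion minus wild type). One of the 10 glycolysis members is among them: HXK2, with 0.46 ± 0.09 (adjusted p = 0.000619). Among the other enzymes, MDH2, the cytosolic malate dehydrogenase, differed by 2.67 ± 0.18 (adjusted p = 1.80e-09), ADH5 by 0.86 ± 0.18 (adjusted p = 0.00132), EMI2 by 0.69 ± 0.24 (adjusted p = 0.0366) and ADH3 by 0.49 ± 0.12 (adjusted p = 0.00324). PDC6 differed by -2.27 ± 0.35 (adjusted p = 5.74e-05). Among the regulators, PFK27, which makes fructose 2,6-bisphosphate, differed by 0.59 ± 0.17 (adjusted p = 0.0142), PFK26 by -0.51 ± 0.13 (adjusted p = 0.00436), the repressor MIG1 by -0.90 ± 0.16 (adjusted p = 0.000277) and MTH1 by -2.31 ± 0.56 (adjusted p = 0.00368). The MTH1 signals were low and spread widely, at 61.4, 87.9 and 235 in the double deletion at 0 min, so the size of its difference is uncertain.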

How the results depend on the processing

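HXK1, GLK1, PYK2 and TDH1 kept a positive heat shock change in all 4 strains under every alternative run. The signs of the small changes depended on the scaling, and the cause was not tested. After quantile normalization HXK2 was at 0.0012 in delta-pbf2, 0.19 in delta-pbf1 and 0.13 in the wild type, PFK1 at 0.12 in the double deletion, 0.015 in delta-pbf2 and 0.10 in the wild type, PFK2 at 0.37 in delta-pbf2 and TDH3 at -0.0074 in the wild type. In the authors' deposited table HXK2 was at 0.010 in delta-pbf2, 0.11 in delta-pbf1 and 0.039 in the wild type, and PFK1 at 0.13 in the double deletion, 0.060 in delta-pbf2 and 0.034 in the wild type. After median centring HXK2 was at -0.10, PFK2 at -0.12, TDH3 at -0.10 and CDC19 at -0.18 in the double deletion, CDC19 at -0.19 in delta-pbf1 and TDH3 at -0.012 in the wild type. After hybridization control centring HXK2 was at -0.13, PFK2 at -0.15, TDH3 at -0.14 and CDC19 at -0.22 in the double deletion, TDH3 at -0.19 in delta-pbf2, CDC19 at -0.26 in delta-pbf1, and PFK2 at -0.23 and TDH3 at -0.11 in the wild type. After poly(A) centring HXK2 was at -0.89, PFK2 at -0.91, TDH3 at -0.89, ENO1 at -0.26 and CDC19 at -0.97 in the double deletion, ENO1 at -0.30 in delta-pbf2, PFK2 at -1.13, TDH3 at -1.08, ENO1 at -0.53 and CDC19 at -1.20 in delta-pbf1, and PFK2 at -0.93, TDH3 at -0.81 and ENO1 at -0.36 in the wild type.

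The count of members called in the double deletion's heat shock was 9 and became 5 with its own arrays alone and 5 to 9 when 1 replicate was left out. Its response difference had 1 member, 0 after poly(A) centring and 1 to 6 without 1 replicate. At 0 min it had 2 members, 4 after quantile normalization, 0 after poly(A) centring and 2 to 6 without 1 replicate. With the replicate block it had 5 there (TDH1, PYK2, ENO1, HXK1 and HXK2). Same-numbered arrays of the double deletion and the wild type correlated at -0.03 to 0.20 at 0 min, and were not taken as paired. At 20 min the double deletion had 2 members, 0 after poly(A) centring and 1 to 2 without 1 replicate. Under poly(A) centring the genes called, of all 5395, were 12 for the response difference, 26 at 0 min and 366 at 20 min, against 1498, 1319 and 2880 on the deposited scaling. For 0 min the genes called were 969 after quantile normalization and 1631 with the replicate block. Delta-pbf2 at 20 min had 0, 2 with the replicate block and 0 to 2 without 1 replicate. Beside these and PFK1 and PFK2 in the double deletion's heat shock, the block changed no call of a member. Left out in turn, replicates gave 7 to 8 members in the wild type and in delta-pbf1 heat shock.

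After quantile normalization the gap of HXK1 and HXK2 was 2.93 in delta-pbf2, 3.11 in delta-pbf1 and 2.97 in the wild type, that of GLK1 and HXK2 1.96, 1.94 and 1.90, that of TDH1 and TDH3 1.60 in delta-pbf1 and 1.56 in the wild type, and that of PFK1 and PFK2 -0.35 in delta-pbf2.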

Other observations

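MDH2, which works in gluconeogenesis beside the members, ran in opposite directions in the strains. Its heat shock change was 1.55 in the double deletion, -0.88 in delta-pbf2, -1.12 in delta-pbf1 and -1.12 in the wild type. At 0 min the double deletion differed from the wild type by -2.49 (called by limma), and at 20 min its difference of 0.18 did not pass. ADH5 had a smaller pattern of this kind, with a heat shock change of 0.90 in the double deletion that passed and of 0.05 in the wild type that did not, and a 0 min difference of -0.66 that passed.

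GPM2 was lower in double deletion cells than in wild type cells at both times, with differences of -1.08 at 20 min and -1.28 at 0 min, and its response did not pass as different (0.21). Of the 10 members, TDH1 was the one called lower at both times.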
